A study of Mus musculus with 9 samples.

Results

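Open chromatin near the genes of the Notch ligands Jag1, Jag2, Dll1 and Dll3, the Notch receptors Notch1, Notch2 and Notch3, and the Fringe modifiers Lfng, Mfng and Rfng was described in cells sorted from the cochlear duct of mouse embryos. A peak was taken as a member when its summit lay nearest, within 500 kb, to a start site of 1 of these 10 genes among protein-coding transcripts (mm9). By this rule 273 of 286921 peaks in 9 peak lists were members. Merged across the lists at gaps of up to 100 bp, they made 67 of 69354 regions, of which Notch1 held 14, Jag1 12, Dll1 10, Notch2 and Notch3 7 each, Lfng 6, Jag2 and Mfng 4 each, Rfng 2 and Dll3 1.

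Notch signaling passes between neighboring cells. A Jagged or Delta ligand on 1 cell binds a Notch receptor on the next, the receptor is cleaved, and its intracellular part enters the nucleus and acts with the DNA-binding protein Rbpj on Hes and Hey genes. In the cochlea, Jag1 marks and promotes the early prosensory domain, the patch of Sox2-expressing progenitors that gives rise to hair cells and supporting cells. Jag2 and Dll1 are made later by nascent hair cells and restrain neighboring cells from becoming hair cells, which is called lateral inhibition. Fringe proteins are glycosyltransferases of the Golgi that add sugars to Notch receptors and so alter their response to the ligand families.

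ATAC-seq, in which a transposase cuts accessible DNA, had been run on cells sorted from cochlear ducts of B6;129S-Sox2tm2Hoch/J embryos. All groups carried this heterozygous knock-in of EGFP in the Sox2 coding region, so 1 copy of Sox2 was altered in every sample, controls included. Sox2-EGFP+ cells, the cells with the highest EGFP signal, were collected at E12, E14.5 and E16 (2 samples each). Sox2-EGFP- cells, the cells with the lowest signal, came from E14.5 (1 sample, replicate 2) and E16 (2 samples), with no such sample at E12. Cells of low or intermediate EGFP were left out by the gate, and each replicate was the pooled ducts of 1 litter. A sample therefore represents a mixture of all cells in its gate, in which fewer cells with an open region and a less open region cannot be told apart.

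The separate cell type tags contradict the titles of 3 of the 4 E16 samples (Sox2-EGFP+ replicate 2 and both Sox2-EGFP- replicates), and the titles were followed. The lists held 7577 and 13817 peaks at E12, 22962 to 66332 in the later Sox2-EGFP+ samples and 23302 to 23899 in the Sox2-EGFP- samples. The E14.5 Sox2-EGFP+ replicate 1 and E16 Sox2-EGFP+ replicate 2 stood apart, with 66332 and 65870 peaks. By the sample descriptions of the study, these 2 samples also had the highest shares of reads in peaks, and the E12 samples had the fewest reads. By the same descriptions, E14.5 Sox2-EGFP+ replicate 2 had more reads than replicate 1 but a far lower share of reads in peaks. Its list, of 22962 peaks, was the shortest of the later ones. The part of depth and library quality in the list lengths was not tested. Of regions fixed for marker genes, the Sox2-EGFP- samples had 23 to 27 peaks near 8 otic mesenchyme genes among their 22962 highest, against 3 to 9 in Sox2-EGFP+ samples, where Prrx1 and Col1a2 had none. Near 7 endothelial genes the Sox2-EGFP- samples had 15 to 18 and the Sox2-EGFP+ samples 5 to 7, and Tek had none in the latter. Prosensory genes had 36 to 44 peaks in Sox2-EGFP+ and 21 to 24 in Sox2-EGFP- samples, and otic epithelial genes 22 to 25 and 9 to 13.

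Each peak was placed by its rank, the position of its −log10 p (narrowPeak column 8) in its own list, with rank 1 the highest. Since long lists reach weaker peaks, groups were compared after each list was shortened to the length of the shortest one, which was 22962 peaks for the cell types and 7577 for the stages. A region with no peak above that limit was placed last. A region was called when its ranks in all samples of 1 group were better than in all samples of the other. The authors kept only peaks replicated within a cell type, so a peak without a counterpart in another sample of its cell type is missing. Presence and absence are thereby tied within a cell type. The permutation tests treat samples as independent, which this filter breaks, so their p-values are descriptive.

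The sequences at the summits of the 8 regions on which the comparisons below turn, 201 bp each, are shown on the forward strand of mm9 (NCBIM37). The first 4 are upstream of Notch1 and ranked better in Sox2-EGFP+ cells or at E12, and the fifth, also upstream of Notch1, ranked better in Sox2-EGFP- cells. The remaining lines hold the Jag1 regions that ranked better in Sox2-EGFP+ (+9.2 kb) and Sox2-EGFP- cells (−88.0 kb), and the Dll1 region at +127.9 kb. Capitals mark matches on either strand to short letters that transcription factors bind. CTTTGTT, at Notch1 −15.3, −29.6 and −37.2 kb, is a form of the Sox site that was added after these sequences had been read. The form chosen first, CATTGTT, is in none of these windows. The letters of Gata factors (AGATAA, read on the reverse strand) are also at −29.6 kb. At Notch1 −43.8 kb capitals mark the Rbpj letters (GTGGGAA, read on the reverse strand) and then an E box. Binding at these letters was not tested. Names give the distance of the region from the main start site of its gene, negative when upstream.
Notch1 −15.3 kb, chr2:26374574-26374774: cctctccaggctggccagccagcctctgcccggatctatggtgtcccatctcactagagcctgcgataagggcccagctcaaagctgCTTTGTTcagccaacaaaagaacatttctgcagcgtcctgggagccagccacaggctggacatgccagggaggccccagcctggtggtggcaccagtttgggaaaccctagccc
Notch1 −29.6 kb, chr2:26388820-26389020: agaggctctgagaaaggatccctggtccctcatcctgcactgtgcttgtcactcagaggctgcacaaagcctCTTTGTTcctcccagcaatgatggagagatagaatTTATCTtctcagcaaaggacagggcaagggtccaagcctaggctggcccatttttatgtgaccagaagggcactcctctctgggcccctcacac
Notch1 −32.0 kb, chr2:26391193-26391393: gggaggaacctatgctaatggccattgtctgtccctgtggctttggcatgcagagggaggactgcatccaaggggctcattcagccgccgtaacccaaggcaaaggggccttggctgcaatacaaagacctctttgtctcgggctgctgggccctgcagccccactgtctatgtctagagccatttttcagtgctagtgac
Notch1 −37.2 kb, chr2:26396410-26396610: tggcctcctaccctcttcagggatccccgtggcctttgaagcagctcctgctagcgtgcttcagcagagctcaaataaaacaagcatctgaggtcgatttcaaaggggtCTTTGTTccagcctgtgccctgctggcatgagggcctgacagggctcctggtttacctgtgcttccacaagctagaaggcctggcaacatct
Notch1 −43.8 kb, chr2:26403070-26403270: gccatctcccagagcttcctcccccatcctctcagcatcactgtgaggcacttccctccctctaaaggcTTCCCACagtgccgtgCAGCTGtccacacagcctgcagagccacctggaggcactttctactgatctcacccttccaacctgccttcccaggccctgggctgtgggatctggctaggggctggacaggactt
Jag1 +9.2 kb, chr2:136933121-136933321: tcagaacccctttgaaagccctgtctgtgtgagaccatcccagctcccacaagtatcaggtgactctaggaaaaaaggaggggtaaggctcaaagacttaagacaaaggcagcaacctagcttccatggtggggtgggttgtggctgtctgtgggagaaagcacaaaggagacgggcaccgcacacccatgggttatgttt
Jag1 −88.0 kb, chr2:137030259-137030459: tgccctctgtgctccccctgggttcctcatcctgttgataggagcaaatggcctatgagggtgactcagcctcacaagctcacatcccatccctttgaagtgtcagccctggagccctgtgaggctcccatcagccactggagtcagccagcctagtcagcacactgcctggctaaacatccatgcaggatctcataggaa
Dll1 +127.9 kb, chr17:15384893-15385093: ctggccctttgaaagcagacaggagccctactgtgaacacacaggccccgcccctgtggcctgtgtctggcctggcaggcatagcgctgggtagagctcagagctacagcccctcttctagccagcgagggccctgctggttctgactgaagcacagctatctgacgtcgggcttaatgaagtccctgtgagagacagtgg

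The start site of Jag1 was open in every sample. Its region ranked 8409 and 2848 in the E12 lists, 14151 and 7512 in E14.5 Sox2-EGFP+, 8277 and 10712 in E16 Sox2-EGFP+, 8453 in E14.5 Sox2-EGFP- and 6185 and 6302 in E16 Sox2-EGFP- cells. The ranks of the cell types overlapped, and the log2 rank averaged 13.27 ± 0.41 (SD, n = 4) in E14.5 and E16 Sox2-EGFP+ and 12.75 ± 0.25 (SD, n = 3) in Sox2-EGFP- cells (exact permutation test, two-sided, p = 0.171). Fold enrichment at this start site, the pileup over the local background, was between 3.71 and 5.64 in all 9 samples. Together with the Notch1 start site it was 1 of 2 member regions with a peak in all 9 lists.

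**Figure D1:**
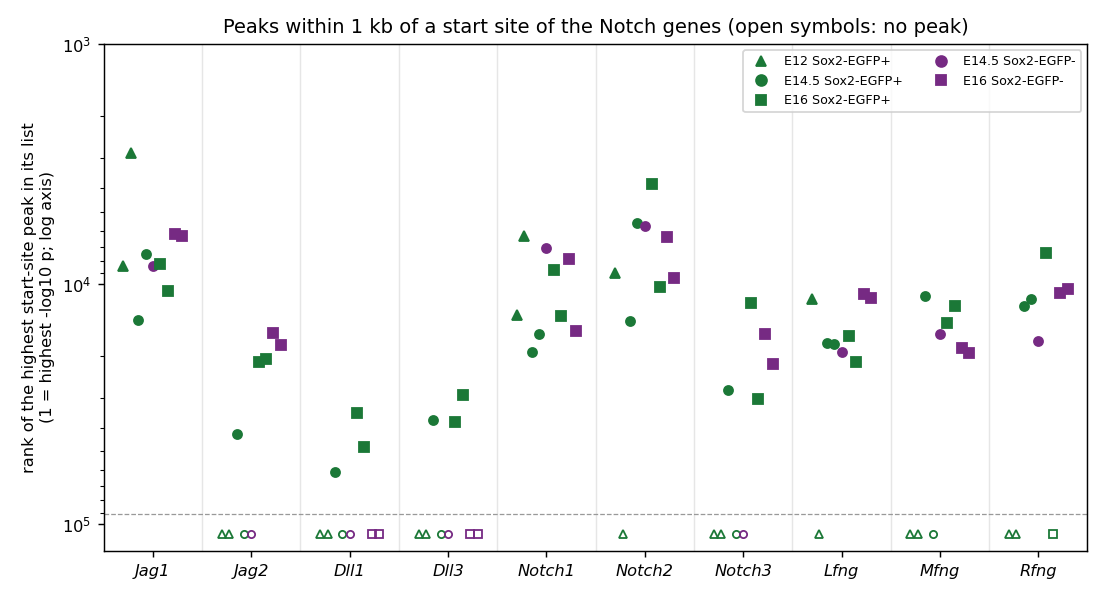
Rank of the highest peak within 1 kb of a start site of each gene (vertical log axis, rank 1 at the top) in each of the 9 samples, where triangles, circles and squares are E12, E14.5 and E16, green is Sox2-EGFP+ and purple is Sox2-EGFP-. Open symbols below the dashed line are samples with no such peak: Jag1 and Notch1 have no open symbol, whereas Dll1 and Dll3 have filled symbols in only 3 Sox2-EGFP+ samples, at 29058 or worse.

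Away from the start site, Jag1 had peaks at different places in the cell types. An intronic region at +9.2 kb ranked 18605 and 11152 in E14.5 and 17669 and 8830 in E16 Sox2-EGFP+ cells, and had no peak in the 3 Sox2-EGFP- lists or at E12. An intergenic region at −88.0 kb ranked 8766 in E14.5 and 11198 and 7618 in E16 Sox2-EGFP- cells, and had no peak in any of the 6 Sox2-EGFP+ lists. Both were called, the first for Sox2-EGFP+ and the second for Sox2-EGFP-. On the log2 scale the ranks at +9.2 kb averaged 13.71 ± 0.52 in Sox2-EGFP+ (SD, n = 4) against 14.49, the value given to absent peaks, in Sox2-EGFP- samples. At −88.0 kb they averaged 13.15 ± 0.28 in Sox2-EGFP- (SD, n = 3), with 14.49 in Sox2-EGFP+ samples. Fold enrichment ranged from 3.68 to 6.28 at +9.2 kb and from 5.27 to 7.72 at −88.0 kb where a peak was present. A pair of further Jag1 regions, at −19.4 kb (16476 and 18268) and at +96.4 kb (13833 and 13106), had peaks in the E14.5 Sox2-EGFP- sample and E16 Sox2-EGFP- replicate 1 and in no other sample.

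Jag1 had peaks farther from its start than the other members. The intergenic region at −374.0 kb ranked 4912 in E12 replicate 2, 28281 and 21970 at E14.5 and 22198 in E16 replicate 2, all of Sox2-EGFP+ cells. It was the only member region beyond 100 kb with a peak at E12. The protein-coding gene next upstream, Btbd3, starts 1140 kb away, so the 500 kb limit rather than a neighboring gene ended the search. The outermost region inside the limit, at −402.2 kb, ranked 60178 and 63302, and the next one outside it, at −526.8 kb, ranked 41548 and 54026, in both cases only in the 2 longest lists. In all, 8 of the 12 Jag1 regions had peaks in Sox2-EGFP+ samples only, 3 in Sox2-EGFP- samples only and 1 in both.

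Jag2 had peaks near its start site and none at E12. The region at −0.3 kb ranked 42218 in E14.5 Sox2-EGFP+ replicate 1, 21255 and 20556 in E16 Sox2-EGFP+ and 16006 and 18054 in E16 Sox2-EGFP- cells. The region at +0.9 kb ranked 52281, 27041 and 48846 in the same Sox2-EGFP+ samples and 18008 and 18167 in E16 Sox2-EGFP- cells. Both ranked better in the E16 Sox2-EGFP- samples than in every Sox2-EGFP+ sample, but the E14.5 Sox2-EGFP- sample had no Jag2 peak, and neither was called (p = 0.171 and p = 0.143, exact permutation tests). The other Jag2 regions, intronic at +5.1 and +7.7 kb, were present in the 2 longest lists only, at ranks of 28158 to 63998.

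Dll1 had ranked peaks far downstream and at −4.8 kb. The region at +90.4 kb ranked 18289 and 9550 in E14.5 and 21660 and 14667 in E16 Sox2-EGFP+ cells, 12518 in E14.5 Sox2-EGFP- and 15867 and 14526 in E16 Sox2-EGFP- cells, so the cell types overlapped (p = 0.771, exact permutation test). At +127.9 kb the Sox2-EGFP+ ranks were 14890, 14028, 18804 and 11721, and the Sox2-EGFP- ranks 21346, 22435 and 22198. These did not overlap, and the region was called for Sox2-EGFP+. Its log2 ranks averaged 13.84 ± 0.28 (SD, n = 4) and 14.42 ± 0.04 (SD, n = 3), and the fold enrichments 4.07 to 11.9 and 3.57 to 4.29 overlapped. A region at −4.8 kb ranked 23712 in E14.5 replicate 1 and 17868 and 11248 in E16 Sox2-EGFP+ cells, with no peak elsewhere, and was the best Dll1 region in both E16 Sox2-EGFP+ samples. The start site itself had only weak peaks, at +0.8 kb (61122, 34542 and 64620) and −0.5 kb (64730 and 47734), all in Sox2-EGFP+ samples. Dll1 had no E12 peak.

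Dll3, a divergent ligand that acts inside the cell rather than activating Notch on a neighbor, had a single region, at its start site. It ranked 37152 in E14.5 replicate 1 and 37567 and 29058 in E16 Sox2-EGFP+ cells and was below the limit of comparison in each, so it was not tested.

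**Figure D2:**
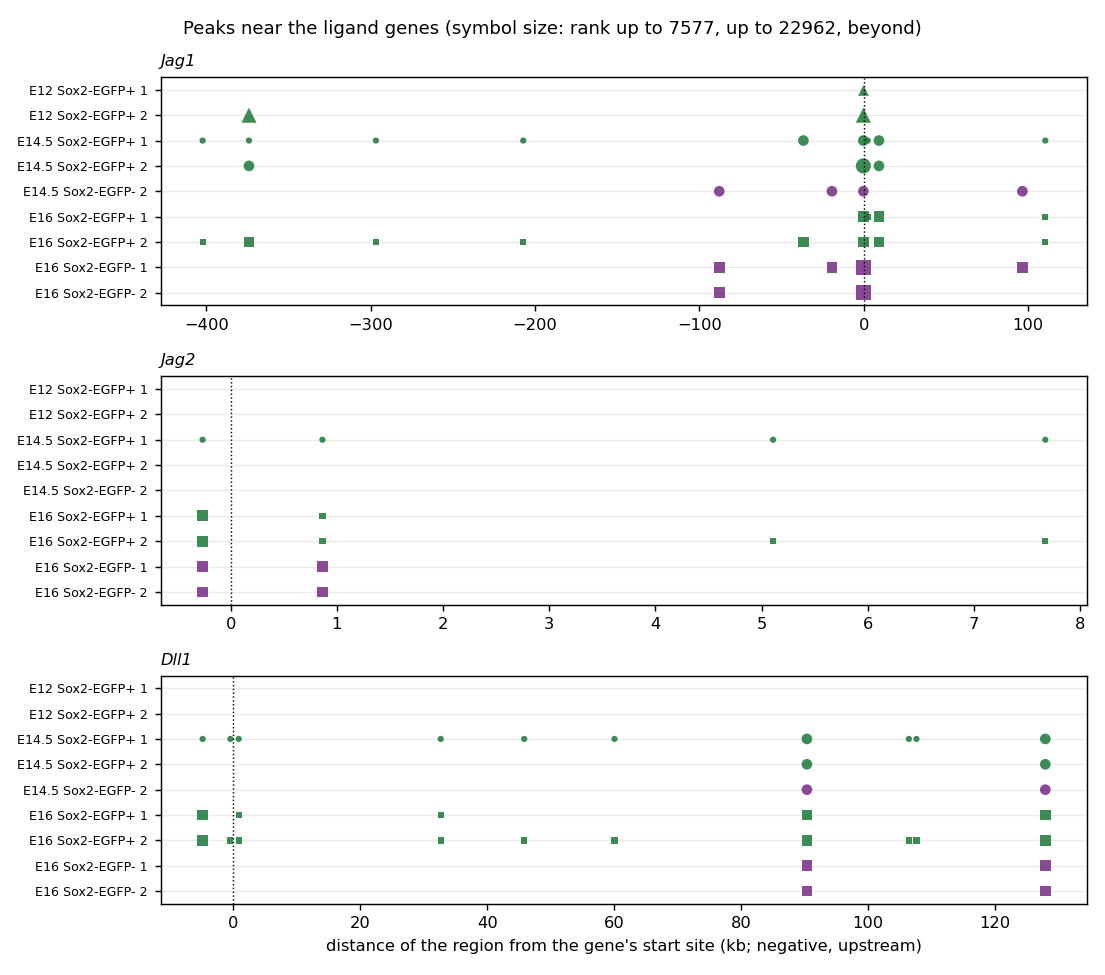
Peaks of Jag1, Jag2 and Dll1 in each of the 9 samples (rows) by distance from the start site in kb, with a scale of its own for each gene. Symbol size falls from ranks up to 7577 through ranks up to 22962 to ranks beyond, and color and shape are as for start sites: the Jag1 peaks at −88.0 kb are purple only, those at +9.2 kb green only, and the E12 rows of Jag2 and Dll1 are empty.

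The ligand of prosensory induction was compared with those of lateral inhibition by the best-ranked peak of each gene, as the log2 rank of Jag2 or Dll1 minus that of Jag1, with genes absent from the 22962 highest peaks placed just past the limit. The best Jag1 rank was better than that of Jag2 and that of Dll1 in 7 of 7 E14.5 and E16 samples. The best Jag1 peak lay at its start site except in E16 Sox2-EGFP+ replicate 2, whereas the best Dll1 peak always lay beyond 1 kb. Among peaks beyond 1 kb, Dll1 ranked better in both E14.5 Sox2-EGFP+ samples (14890 against 18605 and 9550 against 11152). Jag1 ranked better than Dll1 in the other E14.5 and E16 samples. A best rank was drawn from 12 regions for Jag1, 10 for Dll1 and 4 for Jag2. For Jag2 the difference was 0.70, 1.61, 1.36 and 1.22 in Sox2-EGFP+ and 1.44, 1.37 and 1.52 in Sox2-EGFP- samples, with means of 1.22 ± 0.39 (SD, n = 4) and 1.44 ± 0.07 (SD, n = 3). Jag2 had no peak above the limit in either E14.5 Sox2-EGFP+ sample or in the E14.5 Sox2-EGFP- sample, so those 3 values are lower bounds. For Dll1 it was 0.07, 0.35, 1.11 and 0.35 in Sox2-EGFP+ and 0.57, 1.36 and 1.20 in Sox2-EGFP- samples, with means of 0.47 ± 0.45 (SD, n = 4) and 1.04 ± 0.42 (SD, n = 3). The values of the cell types overlapped for both genes. The cell types differed by −0.22 for Jag2 (p = 0.457) and −0.57 for Dll1 (p = 0.143) in exact two-sided permutation tests over 35 splits. Neither test separated the cell types. With peaks beyond 1 kb alone, the differences were −0.45 for Jag2 (p = 0.286) and −0.69 for Dll1 (p = 0.0571) in the same exact test. Without both of the longest lists the Jag2 difference was 0.04 (p = 0.70, exact, 10 splits), the opposite sign.

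**Figure D3:**
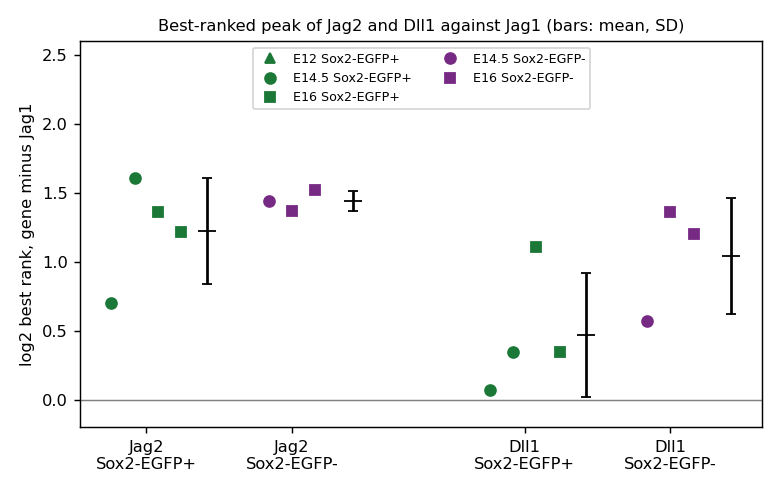
Log2 of the best rank of Jag2 or Dll1 minus that of Jag1 (vertical axis) in each E14.5 (circles) and E16 (squares) sample of Sox2-EGFP+ (green) and Sox2-EGFP- (purple) cells, with the mean and SD in black. All 14 values lie above 0, where Jag1 ranks better, and the cell types overlap for both genes; 3 Jag2 values are lower bounds.

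By stage, the E12 lists held 3 Jag1 peaks, at the start site in both and at −374.0 kb in replicate 2, and no peak of Jag2, Dll1 or Dll3. Among the 7577 highest peaks of each list, Jag1 had a peak in E12 replicate 2, E14.5 Sox2-EGFP+ replicate 2 and both E16 Sox2-EGFP- samples, while the best Jag2 rank in any list was 16006 and the best Dll1 rank 9550. E12 replicate 2, with 7577 peaks, did not reach those ranks. E12 replicate 1, with 13817, did not reach the Jag2 ranks but did reach the best Dll1 ranks, and held no Dll1 peak.

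Among the receptors, Notch1 had the 2 best-ranked peaks of all members, 923 and 1443, both at −15.3 kb from its main start site. Relative to the nearest annotated Notch1 start site the region lies at −2.49 kb. This region ranked 923 in E12 replicate 1, 6781 and 6514 in E14.5 and 3835 and 1443 in E16 Sox2-EGFP+ cells. It had no peak in E12 replicate 2 or in the 3 Sox2-EGFP- lists. Its log2 rank averaged 11.95 ± 1.04 in E14.5 and E16 Sox2-EGFP+ samples (SD, n = 4) against 14.49 in Sox2-EGFP- samples, a difference of 2.54 (p = 0.0286, the smallest that 35 splits allow; Benjamini-Hochberg adjusted over all regions, 0.232, exact permutation test). The filter for replicated peaks ties the samples of a cell type, so the p-value is descriptive at this region. Fold enrichment there reached 13.0 in E16 replicate 2 and 11.6 in E14.5 replicate 1.

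Another pair of regions farther upstream shared this pattern. The region at −32.0 kb ranked 8372 in E12 replicate 1, 13768 and 14050 in E14.5 and 11474 and 19860 in E16 Sox2-EGFP+ cells. The region at −37.2 kb ranked 11634 in E12 replicate 1, 19528 and 12061 in E14.5 and 22169 and 13914 in E16 Sox2-EGFP+ cells. Neither had a peak in E12 replicate 2 or in a Sox2-EGFP- list, and both were called (p = 0.0571 and p = 0.0857, exact permutation tests; adjusted p = 0.312 and 0.397). Between them and the start site, the region at −29.6 kb was present in all 6 Sox2-EGFP+ lists and in no Sox2-EGFP- list. It ranked 6360 and 4224 at E12, 17964 and 21876 at E14.5 and 29248 and 32424 at E16. Both E12 ranks were better than all later ranks, which made it the only member region called by stage (p = 0.429 by cell type, exact permutation test; adjusted p = 0.713 by stage). Ranks in lists of unequal length are not on 1 scale, and fold enrichment at this region was 5.40 and 5.04 at E12 and from 2.65 to 7.20 later, which overlaps.

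The region at −43.8 kb went the other way. It ranked 14644 in E14.5 and 15760 and 9212 in E16 Sox2-EGFP- cells, and 22604, 28517 and 24334 in 3 of the 4 later Sox2-EGFP+ samples, and was called for Sox2-EGFP- (p = 0.0286, adjusted p = 0.232, exact permutation test). Fold enrichment was 3.55, 5.19 and 5.65 in the Sox2-EGFP- samples and 8.99, 4.28 and 5.91 in those Sox2-EGFP+ samples, which overlaps. The region lies 31.0 kb from the outermost annotated Notch1 start site and 32.4 kb from the start of Egfl7, a gene of endothelial cells, so its assignment to Notch1 rests on a small margin. Sox2-EGFP- samples also held more peaks near the endothelial genes given above, and the part of other cell types in this region was not tested.

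Within Notch1, an intronic region at +16.5 kb was in all 6 Sox2-EGFP+ lists, with ranks of 10580 and 6509 at E12, 6787 and 18416 at E14.5 and 5506 and 7091 at E16, and ranked 14485 and 21702 in the E14.5 Sox2-EGFP- sample and E16 Sox2-EGFP- replicate 2. The cell types overlapped through E14.5 replicate 2 (p = 0.0857, exact permutation test). The start site ranked 13521 and 6341 at E12, 19241 and 16162 in E14.5 and 8751 and 13600 in E16 Sox2-EGFP+ cells, and 7085, 7849 and 15791 in Sox2-EGFP- cells, without separation. An alternative Notch1 start at −12.6 kb had peaks in the E14.5 Sox2-EGFP- sample (17982) and E16 Sox2-EGFP- replicate 1 (19531) only. The intergenic region at −22.1 kb, which ranked 17346, 11641 and 12938 in Sox2-EGFP- cells, had ranks of 16908 to 22756 in 3 later Sox2-EGFP+ samples and 9580 in E12 replicate 1.

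Notch2 had its strongest peak at its start site, which ranked 9028 in E12 replicate 1, 14274 and 5562 in E14.5 and 3825 and 10358 in E16 Sox2-EGFP+ cells, and 5765, 6386 and 9416 in Sox2-EGFP- cells. Means of the log2 rank were 12.87 ± 0.86 (SD, n = 4) and 12.78 ± 0.37 (SD, n = 3), within the spread (p = 0.886, exact permutation test). A pair of regions inside the gene was called for Sox2-EGFP-. At +11.1 kb the Sox2-EGFP- ranks were 15731, 21156 and 11964, against 55732, 38866 and 53350 in 3 Sox2-EGFP+ samples. At +29.7 kb they were 17827, 17737 and 15595, against 18980, 38912 and 27350. The margin at +29.7 kb was small, and E14.5 replicate 1 and E16 replicate 2 of Sox2-EGFP+ cells there had higher fold enrichments (8.40 and 5.36) than the Sox2-EGFP- samples (3.57 to 4.95). The intergenic region at −20.2 kb was in the 2 longest lists only, at 25756 and 10066.

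**Figure D4:**
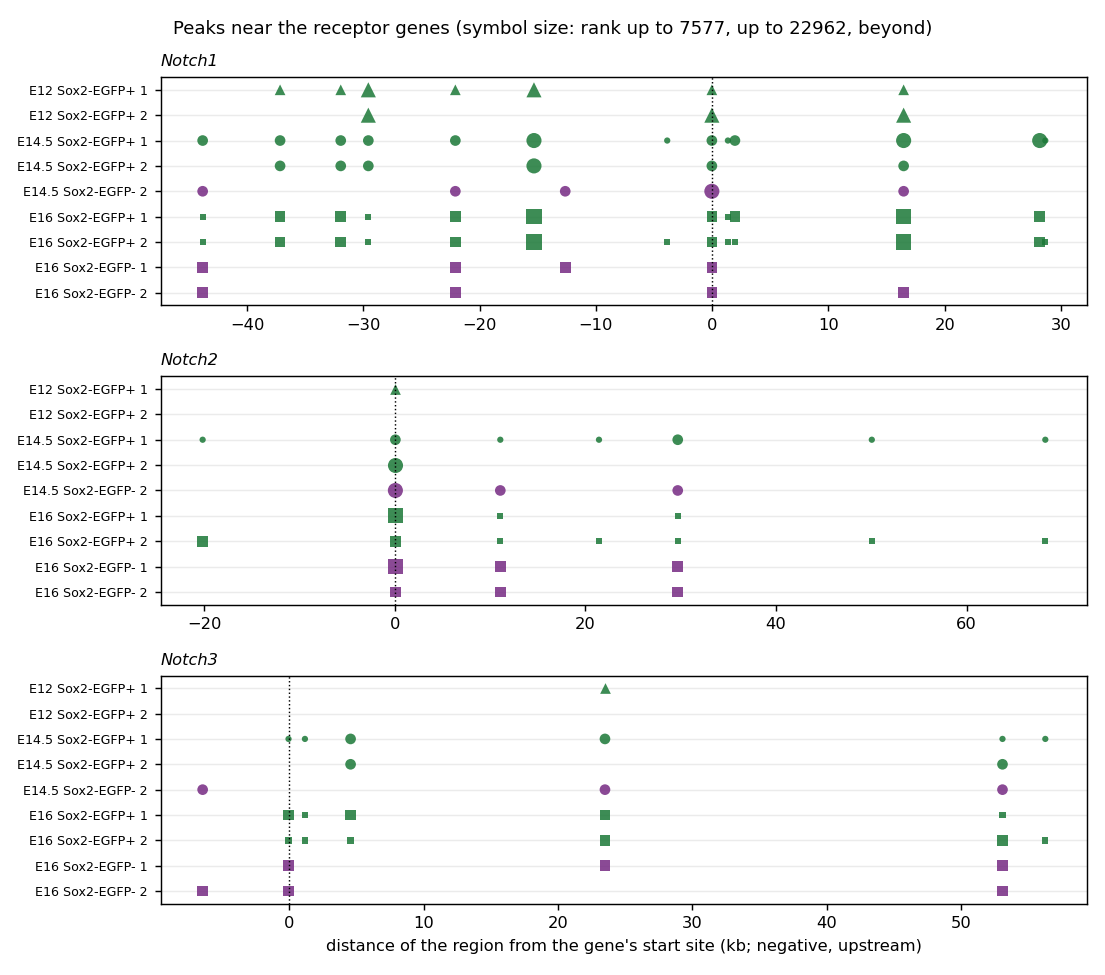
Peaks of Notch1, Notch2 and Notch3 in each of the 9 samples (rows) by distance from the main start site in kb, drawn as for the ligands. Upstream of Notch1 the green symbols at −15.3, −29.6, −32.0 and −37.2 kb have no purple counterpart, and in Notch2 the purple rows have symbols at +11.1 and +29.7 kb.

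Notch3 was led by an intronic region at +4.6 kb that ranked 9447 and 9836 in E14.5 and 8964 and 24664 in E16 Sox2-EGFP+ cells, with no peak at E12 or in Sox2-EGFP- cells. Since 24664 lies beyond the limit of 22962 peaks, the region was not called (p = 0.143, exact permutation test). At +53.1 kb, the best Notch3 region in Sox2-EGFP- cells, the ranks were 22769, 19666 and 9136 there and 32042, 20386, 31690 and 21092 in Sox2-EGFP+ cells, and overlapped. The exonic region at +23.5 kb ranked 10553 in E12 replicate 1, 15251, 14284 and 17028 in 3 later Sox2-EGFP+ samples and 21900 and 15506 in 2 Sox2-EGFP- samples. The start site ranked 27826, 12039 and 30300 in Sox2-EGFP+ and 16138 and 21609 in Sox2-EGFP- samples.

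Among the Fringe genes, Lfng, which is used in the prosensory domain and supporting cells, had 6 regions. Its start site ranked 11580 in E12 replicate 1, 17678 and 17884 in E14.5 and 16459 and 21196 in E16 Sox2-EGFP+ cells, and 19202, 10989 and 11489 in Sox2-EGFP- cells. The intronic region at +4.0 kb ranked 11806 in E12 replicate 1, between 12909 and 22710 in the 4 later Sox2-EGFP+ samples, and 23170 and 15004 in 2 Sox2-EGFP- samples. Upstream, at −12.1 kb, peaks were confined to the 4 later Sox2-EGFP+ lists, at 13886, 22403, 28458 and 17086. None of the Lfng regions was called.

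Mfng had a start site with ranks of 11216, 14527 and 12356 in 3 Sox2-EGFP+ samples and 16170, 18566 and 19400 in the Sox2-EGFP- samples. The ranks would be separate but for E14.5 Sox2-EGFP+ replicate 2, which had no Mfng peak, and the region was not called (p = 0.314, exact permutation test). Its region at +23.4 kb ranked 26182, 26353 and 21942 in Sox2-EGFP+ samples alone. Rfng had a region at its start site (12389, 11571, 7428 and 16935 in later Sox2-EGFP+ and 17285, 10966 and 10482 in Sox2-EGFP- cells) and another at +8.0 kb (15084, 11716, 13224 and 13332, and 9524, 13763 and 20020). Both overlapped between cell types (p = 0.857 and p = 0.83, exact permutation tests). The start of Gps1 lies 68 bp from that of Rfng, and the peaks of E12 replicate 2 (6109) and E16 Sox2-EGFP+ replicate 2 (16935) in the shared region have summits nearer to Gps1.

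Ordered by the median rank of the start-site peak, with peaks nearer to Gps1 not counted for Rfng, in E14.5 and E16 Sox2-EGFP+ cells, the genes with a peak in all 4 samples were Notch2 (7960), Jag1 (9494), Notch1 (14881) and Lfng (17781). Rfng had such a peak in 3 of the 4. The ranges of the genes ordered, 3825 to 14274, 7512 to 14151, 8751 to 19241 and 16459 to 21196, overlapped between each pair of neighbors in this order. In Sox2-EGFP- cells Jag1 (6302), Notch2 (6386), Notch1 (7849), Rfng (10966), Lfng (11489) and Mfng (18566) had a start-site peak in all 3 samples, and neighbors in this order overlapped there too.

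Counted over the 10 genes, 5 of 39 member regions that could be compared (12.8%) were called for Sox2-EGFP+, against 8.51% of all 38497 regions. These were Notch1 at −15.3, −32.0 and −37.2 kb, Jag1 at +9.2 kb and Dll1 at +127.9 kb. For Sox2-EGFP- 4 of 39 (10.3%) were called, against 10.7% of all regions: Jag1 at −88.0 kb, Notch1 at −43.8 kb and Notch2 at +11.1 and +29.7 kb. The shares of members were close to those of all regions, so the counts are not a result about the Notch genes as a group. No region passed the exact permutation test after Benjamini-Hochberg adjustment over all regions (0 of 38497, smallest adjusted p = 0.232), and 4749 had an unadjusted p under 0.05. The other 28 of the 67 regions had no peak above the limit in any list compared. With the samples of contradicting tags left out, the E14.5 sample was the only Sox2-EGFP- sample, and stage was mixed with cell type. That setting therefore cannot check the labels, and its counts are not given. With both of the longest lists left out the counts were 7 and 5 of 36, against 4994 and 5371 of 34479 regions. Within the sequencing batch that held all samples but both E16 replicates numbered 1, they were 7 and 5 of 39, against 12.7% and 18.8%, and the other batch held 1 sample of each cell type. When start sites of non-coding transcripts were included, Dll1 +127.9, Notch1 −37.2, Notch1 −43.8 and Jag1 −88.0 kb lay nearer to another gene.

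**Figure D5:**
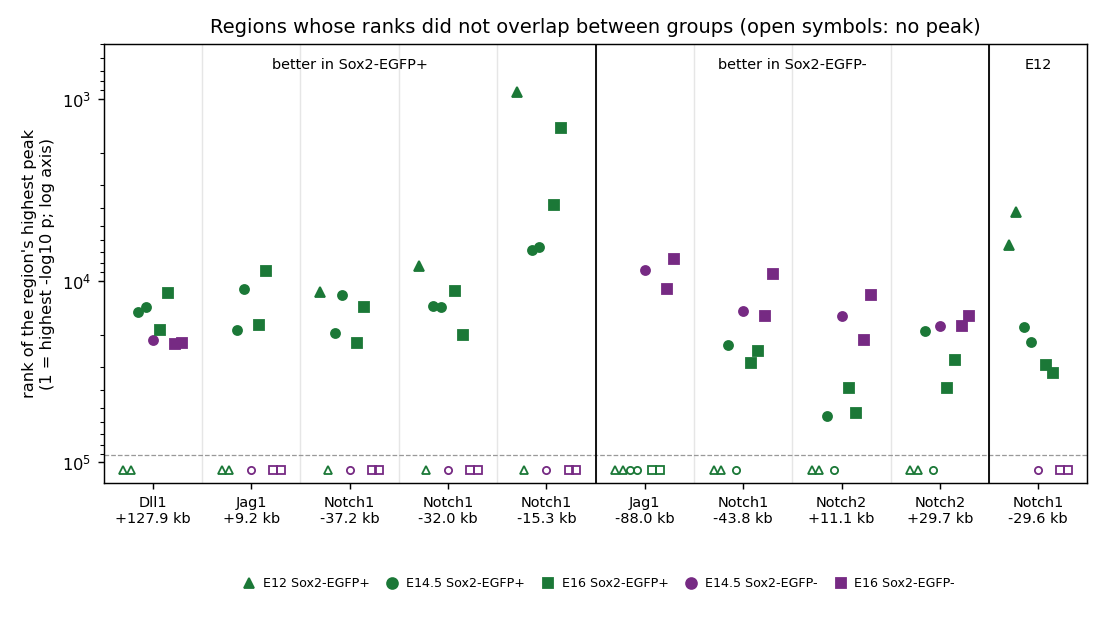
Rank of the highest peak (vertical log axis, rank 1 at the top) in each sample for the 10 called regions, with symbols as for start sites and open symbols for no peak. The left 5 regions were called for Sox2-EGFP+, the next 4 for Sox2-EGFP- and Notch1 −29.6 kb for E12; Notch1 −15.3 kb holds the best ranks, 923 and 1443.

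By stage, 1 of 9 member regions that could be compared (11.1%) was called for E12, Notch1 at −29.6 kb, against 6.53% of 13655 regions, and 0 for E14.5 and E16, against 7.62%. With 15 splits the exact test cannot give a p below 0.0667, and 0 regions passed 0.05 before or after adjustment (smallest adjusted p = 0.713). The count depended on having both E12 samples. Without E12 replicate 1 it was 5 of 9, against 26.8% of all regions, and without E12 replicate 2 it was 8 of 23, against 24.2%. Of all 67 regions, 14 had an E12 peak, 7 of them at Notch1, 2 each at Jag1 and Lfng and 1 each at Notch2, Notch3 and Rfng. The E12 peak in the Rfng region has its summit nearer to Gps1. The 4 regions with a peak in all 6 Sox2-EGFP+ lists were Notch1 at its start site, +16.5 and −29.6 kb and Jag1 at its start site.

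The members resembled the remaining regions in their spread over samples. Peaks in both cell types were found in 20 of the 67 regions (29.9%, against 28.8% of all regions), in Sox2-EGFP+ lists alone in 42 (62.7% against 65.5%) and in Sox2-EGFP- lists alone in 5 (7.46% against 5.63%). The 2 longest lists alone held 21 (31.3% against 35.4%). By position, 13 regions were at a start site, 22 in introns, 1 in an exon and 31 between genes, and 8 lay over 100 kb from their start site, 5 of them at Jag1 and 3 at Dll1. Measured between the midpoints to the neighboring protein-coding start sites, Notch1 had 19.0 regions per 100 kb over 73.8 kb, Jag2 16.5 over 24.3 kb, Dll1 5.83 over 172 kb and Jag1, within the 500 kb limit, 1.96 over 612 kb.

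The summit sequences were searched on both strands for short letters of factors of Notch and prosensory cells. GTGGGAA, the core of the Rbpj site, occurred in 6 of 54 member windows beyond 1 kb of a start site (11.1%), against 5.21% of 54332, and in 2 of 13 at start sites (15.4%), against 3.59% of 15022. Among them were the Notch1 regions at −43.8 kb, 31 bp from the summit, and −22.1 kb, the Notch3 region at +4.6 kb, 6 bp from its summit, and the start site of Lfng. CATTGTT, a form of the Sox site, occurred in 1 of 54 (1.85% against 5.71%), AGATAA in 3 (5.56% against 10.3%), GGAATG of Tead factors in 5 (9.26% against 14.8%), CAGCTG in 11 (20.4% against 17.6%) and the consensus of Six2 in 0 (0.67%). CTTTGTT, another form that shares its last 5 letters, was added after the sequences of the called regions had been read. It occurred in 8 of 54 member windows (14.8% against 9.52%), among them the Notch1 regions at −15.3, −29.6 and −37.2 kb, within 13, 28 and 9 bp of the summit, as the capitals in the sequences above show. The printed windows at Notch1 −32.0 kb, Jag1 and Dll1 hold none of the letters searched. These matches are descriptions and no test was made of them. Windows at member start sites had a median G and C content of 73.6% and 21 CpG, against 66.7% and 17 in all start-site regions, and those beyond 1 kb 56.2% and 4 CpG, against 51.7% and 3.

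Other genes of the pathway, 39 in number, held 221 regions, of which 142 could be compared. Of these, 10 were called for Sox2-EGFP+ and 17 for Sox2-EGFP-, and by stage 5 of 47 were called for E12 and 4 for E14.5 and E16. Among the Hes and Hey genes on the list, Hes5 and Hes6 had 1 region each called for Sox2-EGFP+, Hes1 and Hey1 had 1 in each direction and Hey2 and Heyl 1 each for Sox2-EGFP-. Hes1 and Heyl, like Maml2, Neurl1b and Dner below, are outside the limit of 10 genes and were added after their values were seen. Neurl1a, a ubiquitin ligase of ligand endocytosis, had 5 regions called for Sox2-EGFP- of 13 compared, the most of any gene on the list. Neurl1b, listed for the same role, and the ligand gene Dner had 1 each for Sox2-EGFP- and none for Sox2-EGFP+. Mib1, another ligase of ligand endocytosis, had 1 for Sox2-EGFP+, as had Dtx4, a regulator of receptor turnover. Psen2, of the complex that cleaves the receptor, had 2 for Sox2-EGFP+ and 1 for Sox2-EGFP- of 7 compared. The DNA-binding protein gene Rbpj had 2 of 4 and its coactivator gene Maml3 3 of 19 for Sox2-EGFP-, and none for Sox2-EGFP+. Another coactivator gene, Maml2, had 2 of 11 for Sox2-EGFP+ and none for Sox2-EGFP-. No gene was tested against the background. As for the members, the shares of all regions called are the background of these counts, 8.51% and 10.7% by cell type and 6.53% and 7.62% by stage. Sox2-EGFP- samples also had more peaks near otic mesenchyme genes, of whose 33 regions compared 17 were called for Sox2-EGFP- and 0 for Sox2-EGFP+, and near endothelial genes (7 and 0 of 27). The part of other cell types in the Notch regions called for Sox2-EGFP- was not tested.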

How the data were processed

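ATAC-seq peak lists of 9 samples (6 Sox2-EGFP+, 3 Sox2-EGFP-) were analysed. Reads had been trimmed (Trim Galore), mapped to mm9 (Bowtie2), freed of duplicates and called per sample with MACS2 by the authors, who kept peaks replicated within a cell type. The deposited fold enrichment is a ratio of pileup to local background. The deposited −log10 p and −log10 q values and the score were set by MACS2 within each sample. No reads were used, so the read count of each peak is unknown, although the study gives the reads of each sample. Peaks were ranked by −log10 p with ties at their mean rank and assigned to GENCODE start sites of 51733 protein-coding transcripts (Python 3.11.15, NumPy 2.4.6, pandas 2.3.3). Mean log2 ranks were compared by two-sided exact permutation of sample labels with Benjamini-Hochberg adjustment over all regions, tested on simulated data. Named were, for each of the 10 genes, start sites, the leading region beyond 1 kb in each cell type and called regions, and up to 10 called genes of the pathway. The remaining called genes of the pathway were added after their values were seen. Members, gene lists and motifs were chosen with earlier results of these data known. Replicate numbers are not stated to pair samples except for parallel collection at E16, where same-numbered samples deviated together with r = 0.189. With 2 replicates per group the deviations are mirror images, so both pairs give the same value. The E16 replicates numbered 1 were also a sequencing batch of their own, so pairing and batch cannot be told apart. Alternatives covered ranking, list length, −log10 q, merging, start sites, distance, samples left out, the replicate block, batches and tags.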

Additional observations from a re-analysis of the deposited data

Results flagged for a closer look

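The best rank of Notch3 in E16 Sox2-EGFP+ replicate 2, 17028, stood apart from the other 3 E14.5 and E16 Sox2-EGFP+ samples (8964 to 9836) by Dixon's criterion. Of 13 such sets of values 1 was marked, and chance marks about 1 in 20. At the Lfng start site the E14.5 Sox2-EGFP+ samples ranked better than the E14.5 Sox2-EGFP- sample, whereas both E16 Sox2-EGFP- samples ranked better than both E16 Sox2-EGFP+ samples, and over both stages the log2 rank of Sox2-EGFP- minus Sox2-EGFP+ was −0.44. At Rfng +8.0 kb the order was reversed, with Sox2-EGFP- better at E14.5 and Sox2-EGFP+ better at E16, and the difference over both stages was 0.05. E14.5 had 1 Sox2-EGFP- sample, and the difference between stages was not tested for either region.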

How the results depend on the processing

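The 5 regions called for Sox2-EGFP+ became 2 with ranking by fold enrichment, 8 with whole lists, 0 with the 5000 highest peaks, 1 with a −log10 q of at least 5, 3 with start sites of all transcripts, 10 with E16 alone and 9 without the 3 samples with a contradicting tag. The 4 called for Sox2-EGFP- became 0, 1, 2, 10 and 11 with the 5000 highest peaks, the −log10 q limit, all transcripts, E16 alone and without those 3 samples. The E12 count of 1 became 0 with ranking by fold, the 5000 highest peaks and the −log10 q limit. The later count of 0 became 7 with whole lists and 1 without both of the longest lists, an alternative chosen after the list lengths were seen. There the Jag2 difference was 0.04 in place of −0.22. Leaving out 1 sample in turn gave 5 to 8, 4 to 10, 1 to 8 and 0 to 1 regions for the 4 counts, in that order, −0.35 to −0.05 for Jag2, −0.81 to −0.42 for Dll1 and 67 to 69 member regions. The count for Sox2-EGFP+ was 8 without E14.5 Sox2-EGFP+ replicate 2, and that for Sox2-EGFP- was 10 without the E14.5 Sox2-EGFP- sample and 8 without E16 Sox2-EGFP- replicate 2. Part of these changes follows from the construction, since fewer samples overlap less often and shorter lists hold fewer members, and beyond that the cause was not tested. With the replicate block (pairs of the same number and stage, 3 pairs) 5 regions were called for each cell type, and the differences were −0.05 for Jag2 and −0.44 for Dll1 (exact sign-flip permutation, p = 0.75 and p = 0.25), on the same side of the threshold. A call needs all samples to separate, so its survival when samples are left out or paired is no sign of stability. Under the −log10 q limit the calls kept were Notch1 −15.3 kb and Jag1 −88.0 kb. The lists hold no reads, so a missing peak is not closed chromatin, least of all at E12.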
